A study of Homo sapiens with 6 samples.

Results

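Cadherins, protocadherins, claudins and connexins are membrane proteins through which neighbouring cells adhere, seal the gap between them or exchange small molecules. Their genes were taken by name, from probe sets with exactly 1 annotated symbol that was CDH, CLDN, GJA, GJB, GJC or GJD followed by a number, or that began with PCDH. The rule found 247 of 49395 probe sets, which stand for 125 of 18132 genes. These were 21 cadherins, 22 claudins, 15 connexins and 67 protocadherins, 55 of them in the alpha, beta and gamma clusters of chromosome 5 and 12 elsewhere. All 125 gene IDs were found in the RefSeq gene table. Cells of the line HMEC-1 had received EPC-Exos at 1e+11 particles per mL for 24 hours on 3 arrays, and PBS in the same volume for as long on the other 3, all in serum-free medium. HMEC-1 is a single line of human dermal microvascular endothelium, immortalised with a viral oncoprotein, so both groups carry that change. EPC-Exos is not spelled out in the labels; the study concerned vesicles from endothelial progenitor cells. No label says that replicates were grown apart, so the p-values cover the spread of 3 arrays a group, part or all of which may be technical. No label or header gives a batch.

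Classical cadherins bind the same cadherin on the next cell through calcium-dependent extracellular repeats and hold actin through catenins. VE-cadherin (CDH5) does this in endothelium, often beside N-cadherin (CDH2). Claudins are the strands of tight junctions and set which ions pass between cells, with CLDN5 the main one of endothelium. Connexins assemble into gap junction channels, and in vessels these are formed mainly by the products of GJA1, GJA4, GJA5 and GJC1. Protocadherins lack the catenin link. The clustered ones are best known from neurons, where each cell uses its own choice of them.

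Array medians of the deposited log2 signal lay between 6.25 and 6.34. Arrays of different groups correlated at 0.988 to 0.989 over the non-control probe sets, and arrays of 1 group at 0.997. The table carries no detection calls. The array's 17 Tag control probe sets, designed against synthetic tags, served as a guide to background. Their means ran from 3.17 to 4.97, with a median of 3.67, and the highest, 4.97, was the Tag level used here. By that guide 71 of the 125 genes lay below background in both groups, between 3.10 and 4.95, and 5 more did so in one group. A gene was tested if its brightest probe set averaged at least 5.45 over the 6 arrays, the 40th percentile of the table, which 37 members did and 88 did not. Of the 37, 4 had one group mean under that level (CDH18, CDH22, PCDH18 and PCDHA4).

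**Figure D1:**
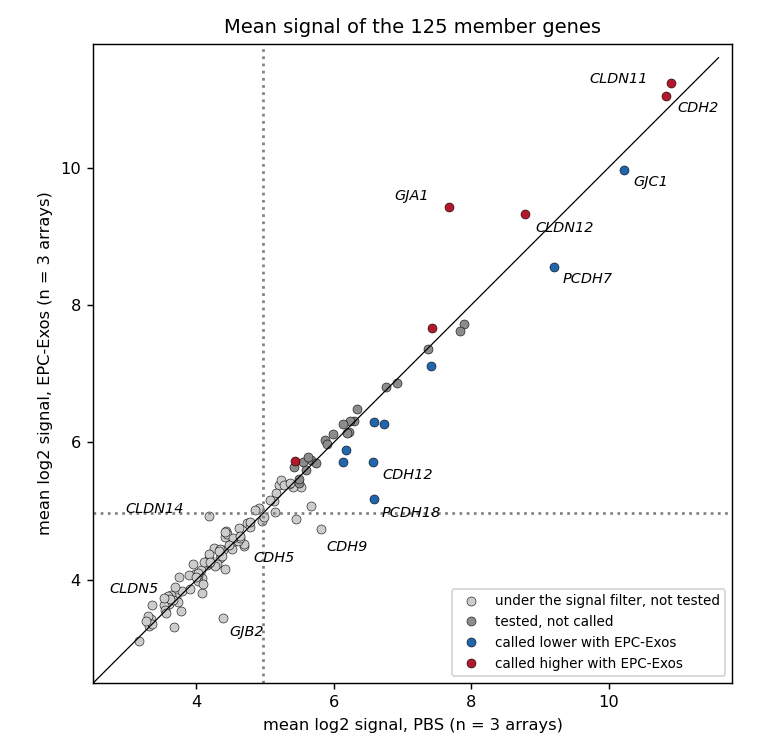
Mean log2 signal of the 125 member genes with EPC-Exos (vertical axis) against PBS (horizontal axis), 3 arrays each. Dotted lines mark the highest Tag control mean of 4.97, and 71 genes lie below it on both axes. GJA1 stands farthest above the diagonal among the tested genes, and PCDH18 farthest below it.

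The defining endothelial members did not stand above the highest Tag control on these arrays. CDH5 had log2 signals of 4.57, 4.59 and 4.32 with EPC-Exos, against 4.45, 4.91 and 4.73 with PBS, all under the Tag level. CLDN5 gave 3.58, 3.88 and 3.56 with EPC-Exos and 3.35, 3.76 and 3.61 with PBS. The vascular connexin genes GJA4 (4.32 ± 0.044 with EPC-Exos and 4.19 ± 0.25 with PBS, SD, n = 3 each) and GJA5 (3.76 ± 0.15 with EPC-Exos and 3.59 ± 0.46 with PBS) also lay under it. Of 15 endothelial marker genes, CDH5 and CLDN5 included, 5 were below the Tag level in both groups. Of the 9 that could be tested 5 rose and 0 fell in limma, also at an unadjusted p under 0.05. Over all tested genes 21.7% rose and 27.3% fell, and with 9 genes the shares were not compared. The sum of the linear signals of the 15 markers was 3147 to 3236 with EPC-Exos and 2249 to 2551 with PBS, most of it from ROBO4 and ENG. Both were well above background. The guidance receptor gene ROBO4 averaged 10.09 with EPC-Exos and 9.98 with PBS, and ENG, the co-receptor endoglin, 9.96 with EPC-Exos and 9.16 with PBS. ENG was among the 5 that rose and ROBO4 was not. By this guide the RNA of VE-cadherin and claudin 5 could not be told from background in either group. Every CDH5 array lay above the Tag median of 3.67, so RNA of CDH5 is not shown to be absent. The endothelial markers above the guide were other genes.

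Of the 37 tested members, 15 were called by limma, a linear model fitted over all 11715 tested genes, where the p adjusted by Benjamini-Hochberg lay under 0.05. That is 40.5% of the members, and 49.1% of all tested genes were called. With EPC-Exos 6 members were higher, where 21.7% of all genes were, and 9 were lower, where 27.3% were. The median log2 change was -0.01 over the members and -0.01 over all tested genes. A fold of at least 1.5 was reached by 4 called members, or 10.8%, near the 9.89% of all genes. The groups did not overlap in 17 of the 37 (45.9%), against 55.7% of all genes, so the families as a whole moved no more often than the rest of the array. The 4 members past 1.5-fold were GJA1, which rose, and PCDH18, CDH12 and PCDH7, which fell. Of the 4 tested members with 1 group mean under the level required for testing, 2 were called, CDH18 higher and PCDH18 lower.

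**Figure D2:**
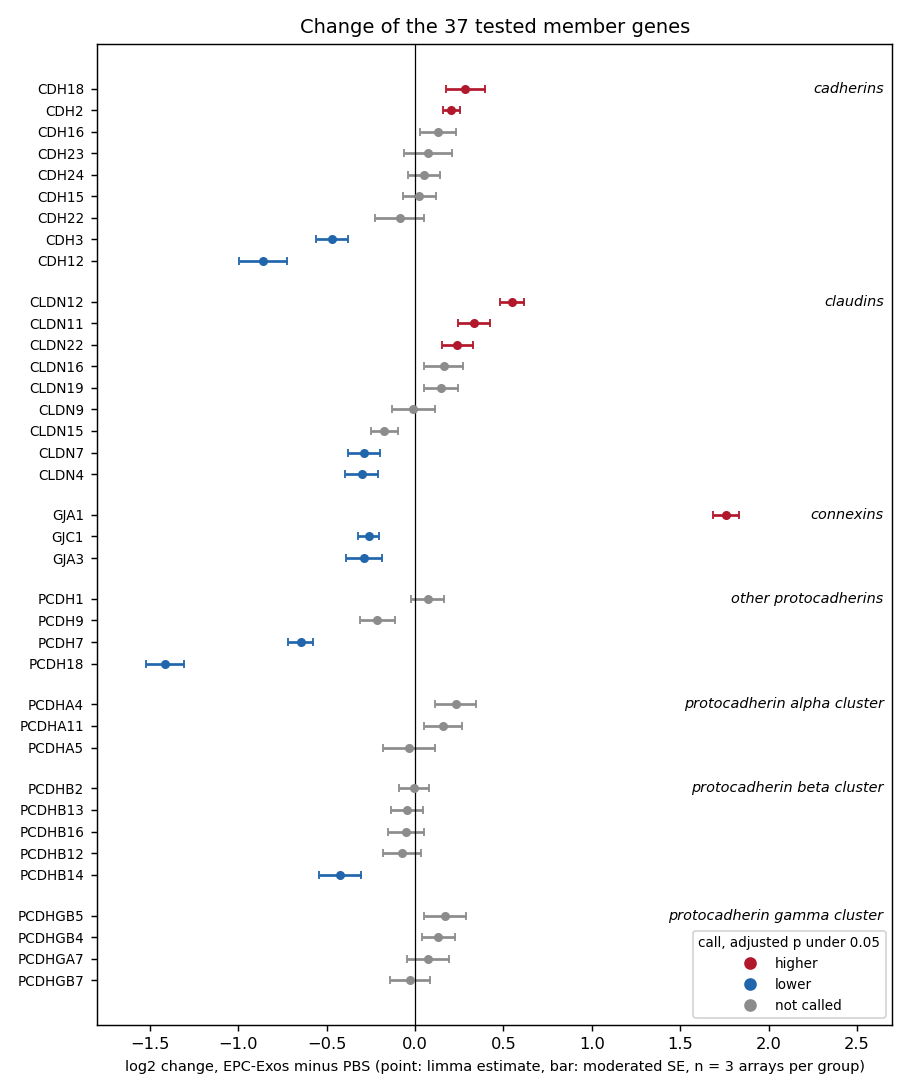
Log2 change (EPC-Exos minus PBS, horizontal axis) of the 37 tested genes, grouped by family, with limma's moderated standard error (n = 3 arrays per group). Red points rose, blue points fell and grey points were not called. GJA1 lies at 1.76 and PCDH18 at -1.42, while the tested members of the alpha and gamma clusters lie between -0.03 and 0.23.

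Among connexins, GJA1 rose and the other tested genes, GJC1 and GJA3, fell. GJA1 encodes the most widespread gap junction protein of the body. It had log2 signals of 9.49, 9.34 and 9.46 with EPC-Exos, against 7.67, 7.57 and 7.77 with PBS. Each EPC-Exos array was thus more than 1.5 log2 units above every PBS array. The change was 1.76 ± 0.074 (SE), a fold of 3.39 (adjusted p = 9.98e-12), and GJA1 ranked 30 of the 2545 genes that rose. Its size depends on the probe set. The brightest one, of the shared kind that can bind related transcripts, gave that value. The next, at 6.00 ± 0.16 with EPC-Exos and 5.56 ± 0.16 with PBS (SD, n = 3 each), changed by 0.44 ± 0.12, and was called in the fit over all probe sets. A dim pair lay under the Tag level in both groups, where a size is not measured, and 1 of the pair was called higher. Without shared-kind probe sets the GJA1 change was 0.44 (adjusted p = 0.00493).

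GJC1, a connexin gene of smooth muscle and the heart's conduction system, had 9.90, 10.07 and 9.92 with EPC-Exos and 10.21, 10.19 and 10.28 with PBS. The groups did not overlap, and the change was -0.26 ± 0.059 (adjusted p = 0.00142). Its other probe sets changed by -0.18 ± 0.082 and 0.03 ± 0.10 and were not called, and the mean of its 3 probe sets missed the threshold (adjusted p = 0.0588). GJA3, a lens connexin gene, averaged 5.90 ± 0.12 with EPC-Exos and 6.18 ± 0.068 with PBS, a change of -0.29 ± 0.10 (adjusted p = 0.0273). That call was lost without EPC-Exos replicate 1 or 2 or PBS replicate 1 or 3 (adjusted p = 0.0597, 0.104, 0.0950 and 0.0501) and with median centring (adjusted p = 0.0507). GJB2, a connexin gene of epidermis and inner ear, was under the Tag level in both groups, at 3.21, 3.55 and 3.57 with EPC-Exos and 4.50, 4.29 and 4.35 with PBS. All 3 of its probe sets were called lower in the fit over all probe sets. The size of the difference is not measured, since both groups lay in the range of the Tag controls. GJA10 had 4.99 ± 0.015 with EPC-Exos and 5.14 ± 0.36 with PBS. GJA4, GJA5 and the 8 remaining connexins under the filter lay below the Tag level.

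The 250 bases upstream of the GJA1 gene start are shown because this gene changed most (RefSeq, GRCh38.p14, chr6:121435396-121435645, plus strand, 5′ to 3′). Capitals mark the letters TGANTCA, with any base at N, searched on both strands. These letters are wider than the core that AP-1 factors bind, TGACTCA or TGAGTCA.
GJA1 promoter: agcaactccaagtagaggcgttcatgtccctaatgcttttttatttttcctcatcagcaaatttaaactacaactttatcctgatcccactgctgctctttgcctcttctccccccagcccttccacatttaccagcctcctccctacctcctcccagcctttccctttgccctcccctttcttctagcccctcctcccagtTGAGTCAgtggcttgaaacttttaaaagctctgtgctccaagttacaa
The match begins 48 bases before the gene start. Such a match stood in 6.57% of the 35116 promoters of the RefSeq table over the same 250 bases. Of the 125 members 95 had a promoter there, 121 promoters in all, of which 8.26% held it. Among the 29 tested members with a promoter, 7 had a match in any promoter. That is a count by gene, so it cannot be set against the shares by promoter. The 7 were GJA1, CDH2 and CDH18, which rose, CLDN4 and CDH12, which fell, and CLDN15 and CLDN16, which were not called. The CDH12 match reads TGATTCA, outside the AP-1 core. Whether the GJA1 site is used in these cells was not measured.

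Of 9 tested claudins, 3 rose and 2 fell. CLDN12, a claudin linked to calcium passage, rose most, with 9.42, 9.26 and 9.30 with EPC-Exos and 8.86, 8.75 and 8.72 with PBS. The groups were apart, and the change was 0.55 ± 0.067, a fold of 1.46 (adjusted p = 4.12e-06). It is a shared-kind probe set too; the other CLDN12 probe set changed by 0.30 ± 0.11 and was not called in the fit over all probe sets (adjusted p = 0.0560), though it was where genes were tested without the shared kind (adjusted p = 0.0324). CLDN11, the claudin of myelin and of Sertoli cells in the testis, had 11.26, 11.33 and 11.12 with EPC-Exos and 11.15, 10.93 and 10.64 with PBS. One PBS array reached the EPC-Exos range, and the change was 0.33 ± 0.091 (adjusted p = 0.00616). All 3 CLDN11 probe sets were called higher, but the gene's call needs EPC-Exos replicate 2 (adjusted p = 0.0548 without it). With no variance trend in the model CLDN11 had an adjusted p of 0.0503. CLDN22 averaged 7.66 ± 0.069 with EPC-Exos and 7.42 ± 0.16 with PBS, a change of 0.24 ± 0.089 (adjusted p = 0.0339). Its neighbour CLDN24 is a close relative that such probes may also bind. The CLDN22 call was lost without EPC-Exos replicate 1 or 2 or PBS replicate 2 or 3 (adjusted p = 0.0761, 0.125, 0.174 and 0.0536). It was also lost with the mean of its probe sets and with no filter. In the fit over all probe sets 0 of the 2 CLDN22 probe sets were called.

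CLDN4 and CLDN7, barrier claudins of epithelia, fell. CLDN4 had 6.93, 7.26 and 7.13 with EPC-Exos and 7.39, 7.44 and 7.40 with PBS, a change of -0.30 ± 0.091 (adjusted p = 0.0109, and 0.0757 without EPC-Exos replicate 1). Its 3 probe sets were all called lower, the next brightest by -0.52 ± 0.11. The dimmest CLDN4 probe set was under the Tag level with EPC-Exos, at 4.89, and at 5.55 with PBS. CLDN7 had 6.36, 6.32 and 6.22 with EPC-Exos and 6.57, 6.57 and 6.62 with PBS, a change of -0.29 ± 0.091 (adjusted p = 0.0140, and 0.0584 without EPC-Exos replicate 3). In neither gene did the groups overlap. CLDN15, an intestinal pore-forming claudin, had 7.72 ± 0.11 with EPC-Exos and 7.89 ± 0.032 with PBS and was not called (adjusted p = 0.0778). Its dimmer probe set was at 5.38 with EPC-Exos and 5.71 with PBS and was called lower in the fit over all probe sets (-0.33 ± 0.11, adjusted p = 0.0365). The changes of CLDN16, CLDN19 and CLDN9 were 0.16 ± 0.11, 0.15 ± 0.096 and -0.01 ± 0.12, without a call. CLDN14, an inner ear claudin, reached 4.92 ± 0.24 with EPC-Exos and 4.18 ± 0.21 with PBS, both under the Tag level, and was higher in the fit without the filter (adjusted p = 0.000262). CLDN23 had 5.35 ± 0.079 with EPC-Exos and 5.52 ± 0.10 with PBS.

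Promoters of both genes are shown because they are known targets of repressors of the SNAI and ZEB families, which bind the letters CACCTG. Capitals mark TGANTCA in CLDN4 (chr7:73830746-73830995, plus strand) and CACCTG, on either strand, in the second CLDN7 promoter of the table (chr17:7262479-7262728, minus strand), both from GRCh38.p14 and read 5′ to 3′.
CLDN4 promoter: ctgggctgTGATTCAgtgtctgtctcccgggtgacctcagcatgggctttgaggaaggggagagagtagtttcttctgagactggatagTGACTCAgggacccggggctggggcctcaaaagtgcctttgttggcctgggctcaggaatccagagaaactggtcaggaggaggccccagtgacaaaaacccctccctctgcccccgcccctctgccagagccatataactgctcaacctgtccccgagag
CLDN7 promoter: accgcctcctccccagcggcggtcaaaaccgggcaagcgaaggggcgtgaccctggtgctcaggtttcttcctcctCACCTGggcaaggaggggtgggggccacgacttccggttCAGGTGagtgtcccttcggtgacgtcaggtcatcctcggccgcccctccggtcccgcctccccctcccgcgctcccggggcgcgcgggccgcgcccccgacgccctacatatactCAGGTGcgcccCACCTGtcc
CLDN4 held TGANTCA at 242 and 161 bases before the gene start and no CACCTG. The match at 242 reads TGATTCA, outside the AP-1 core, and that at 161 reads TGACTCA. CLDN7 held CACCTG at 174, 135, 20 and 9 bases before it, and its first promoter held neither motif. CACCTG stood in 17.5% of all promoters of this length and in 10.7% of the members' promoters. Of the tested members with a promoter 4 held it in any promoter, CLDN7 and GJA3, which fell, and CDH23 and PCDH1, which were not called. This count is by gene and cannot be set against the shares by promoter.

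The list of 11 epithelial markers holds CLDN4 and CLDN7 themselves. Of its 4 tested genes that are not members, the keratin genes KRT18 and KRT8 fell, and EPCAM and KRT14 were not called. CDH1, the epithelial E-cadherin, lay under the Tag level at 4.08 ± 0.30 with EPC-Exos and 3.98 ± 0.016 with PBS, as did KRT19 and ESRP1. The summed linear signal of the 8 markers that are not members was 4711 to 4860 with EPC-Exos and 6854 to 7543 with PBS, most of it from KRT18. Their part in the claudin result was not tested. All arrays are of a single line, and in bulk RNA a change in some of its cells cannot be told from a change in all.

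Of 9 tested cadherins, 2 rose and 2 fell. CDH2, N-cadherin, had 11.02, 11.09 and 11.02 with EPC-Exos and 10.85, 10.79 and 10.88 with PBS. Its groups were apart but close, with a change of 0.20 ± 0.047, a fold of 1.15 (adjusted p = 0.00153). A second CDH2 probe set rose by 0.53 ± 0.063 in the fit over all probe sets, so the direction is shared and the size is not. CDH3, P-cadherin of epidermis and placenta, had 6.20, 6.34 and 6.26 with EPC-Exos and 6.65, 6.76 and 6.79 with PBS, a change of -0.47 ± 0.092 (adjusted p = 0.000447). All EPC-Exos arrays lay below all PBS arrays. Of the 2 CDH3 probe sets, both past the filter, only 1 was called lower in the fit over all probe sets.

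CDH12, CDH10 and CDH9, cadherins described mainly in brain, lie close together on chromosome 5, between CDH18 and CDH6. CDH12 had 5.95, 5.31 and 5.86 with EPC-Exos and 6.60, 6.54 and 6.57 with PBS. The change was -0.86 ± 0.14, a fold of 1.82 (adjusted p = 5.82e-05), and the groups did not overlap. Its next probe set, at 5.21 with EPC-Exos and 5.25 with PBS, was not called. The dimmest was called lower, at 4.44 with EPC-Exos, under the Tag level, and 5.49 with PBS, so its size is not measured. CDH9 had 4.66, 4.70 and 4.85 with EPC-Exos and 5.63, 6.01 and 5.82 with PBS. It lay under the filter and was called lower in the fit without it (adjusted p = 8.08e-07). CDH10 had 4.94, 5.05 and 4.66 with EPC-Exos and 5.58, 5.25 and 5.51 with PBS and was called lower in that fit (adjusted p = 0.00158). The EPC-Exos means of CDH9 and CDH10 were below the Tag level, so the size of their change is not measured. CDH18, the neighbour on one side, averaged 5.72 ± 0.094 with EPC-Exos and 5.44 ± 0.12 with PBS and was called higher (0.28 ± 0.11, adjusted p = 0.0433), and CDH6, on the other side, was at 4.03 with EPC-Exos and 4.08 with PBS, under the Tag level and not called (adjusted p = 0.765 in the fit without the filter). The CDH18 call was lost under 7 alternatives, among them leaving out EPC-Exos replicate 1 or 2 or PBS replicate 2 or 3 (adjusted p = 0.135, 0.104, 0.150 and 0.0939). In the fit over all probe sets 0 of the 2 CDH18 probe sets were called, though both were past the filter.

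The other 5 tested cadherins were not called. CDH24 is unsettled, since its brighter probe set changed by 0.05 ± 0.089 and the other by -0.55 ± 0.11 (adjusted p = 0.000725 in the fit over all probe sets). CDH15 of muscle, CDH16 of kidney, CDH22 of brain and CDH23, which forms the tip links of hair cells, changed by 0.02 ± 0.094, 0.13 ± 0.10, -0.09 ± 0.14 and 0.07 ± 0.14.

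**Figure D3:**
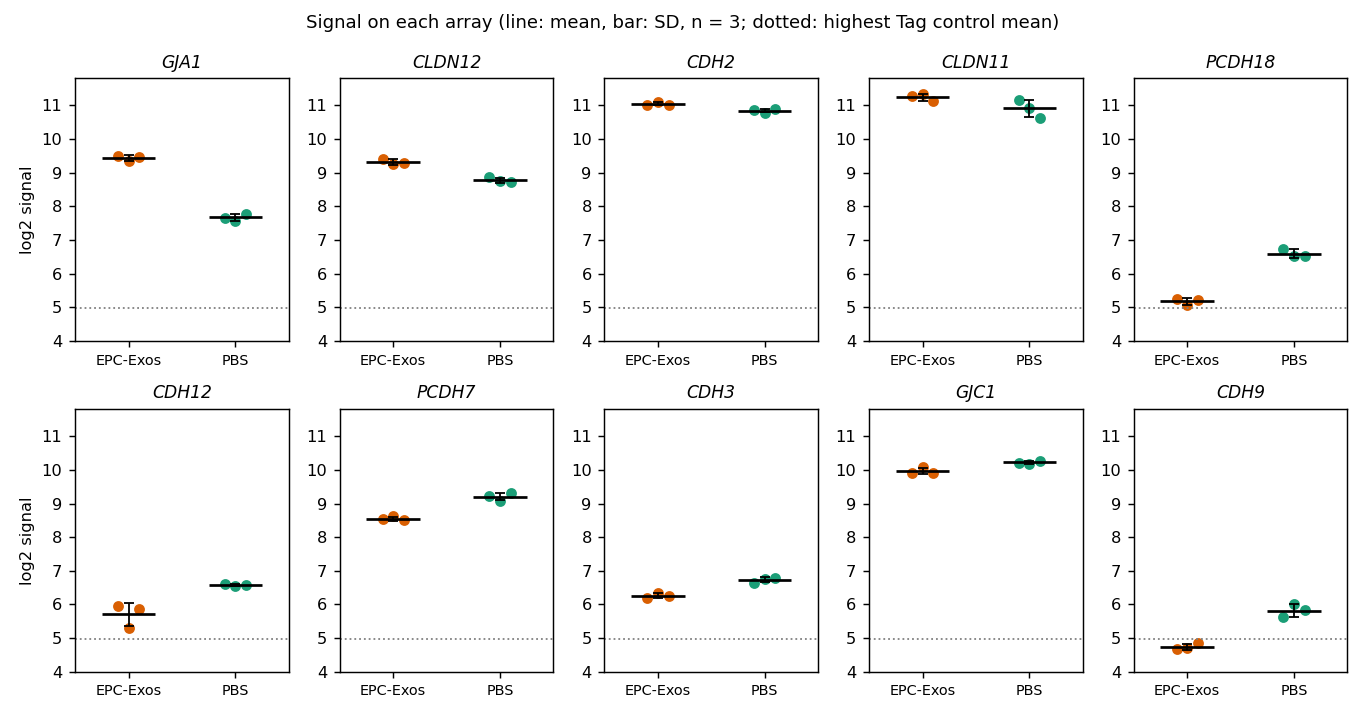
Log2 signal (vertical axis) of 10 member genes on each EPC-Exos array (left, orange) and each PBS array (right, green), with the mean and SD of 3 arrays. The dotted line is the highest Tag control mean, 4.97. In CLDN11 the groups overlap, in the other 9 they do not, and the EPC-Exos arrays of CDH9 lie below the dotted line.

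Of 16 tested protocadherins 3 were called lower and 0 higher. The 3 are 18.8% of them, below the 27.3% of all tested genes that were called lower, and the direction of the family was not tested. At an unadjusted p under 0.05 in limma 4 were lower and 0 higher. PCDH18, a protocadherin gene outside the clusters, fell most, with 5.24, 5.06 and 5.22 with EPC-Exos and 6.74, 6.51 and 6.51 with PBS. The change was -1.42 ± 0.11, a fold of 2.67 (adjusted p = 1.51e-08), the 73rd of the 3203 falls by size. The EPC-Exos mean of PCDH18, 5.17, lay under the filter and close to the highest Tag control mean of 4.97. PCDH18 was tested because its mean over all arrays, 5.88, passed the filter. The size of its fall, and so its rank, is uncertain. The probe set that gave these values is of the shared kind. Without such probe sets, or with the mean of its probe sets, PCDH18 lay under the filter and was not tested. A dimmer PCDH18 probe set was called lower, at 4.47 with EPC-Exos, under the Tag level, and 5.65 with PBS, while 3 others were under the Tag level in both groups and not called. PCDH7 had 8.54, 8.62 and 8.51 with EPC-Exos and 9.22, 9.09 and 9.30 with PBS, a change of -0.65 ± 0.070, a fold of 1.57 (adjusted p = 1.01e-06). Of its 5 probe sets 3 were called lower, and the second brightest changed by 0.09 ± 0.082 without a call. The mean of the PCDH7 probe sets changed by -0.28 (adjusted p = 0.00421).

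PCDH9 was not called, at 7.63, 7.67 and 7.56 with EPC-Exos and 7.92, 7.57 and 8.02 with PBS (-0.21 ± 0.10, adjusted p = 0.0914). PBS replicate 2 lay among the EPC-Exos arrays, and without it the change was -0.35 (adjusted p = 0.00280). The dimmest PCDH9 probe set, under the filter, was at 4.23 ± 0.12 with EPC-Exos and 5.98 ± 0.21 with PBS and was called lower (adjusted p = 6.53e-09 in the fit over all probe sets). The EPC-Exos mean lay under the Tag level, so the size of that difference is not measured. PCDH1, an adhesion protein of airway epithelium, changed by 0.07 ± 0.093. PCDH12, a protocadherin of endothelium, had 5.36 ± 0.27 with EPC-Exos and 5.40 ± 0.056 with PBS, and PCDH10 had 5.39 ± 0.095 with EPC-Exos and 5.35 ± 0.075 with PBS.

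The PCDH18 promoter (RefSeq, GRCh38.p14, chr4:137532495-137532744, minus strand, 5′ to 3′) is shown for comparison with that of GJA1 and holds neither motif, so it has no capitals.
PCDH18 promoter: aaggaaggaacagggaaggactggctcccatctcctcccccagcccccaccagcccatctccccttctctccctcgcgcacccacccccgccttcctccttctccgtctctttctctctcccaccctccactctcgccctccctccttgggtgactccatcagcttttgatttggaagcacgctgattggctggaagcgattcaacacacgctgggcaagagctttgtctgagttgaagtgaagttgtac
That says only that these letters are not in this window.

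Most of the clustered protocadherins were too dim to be tested. Of 55 genes 12 passed the filter and 1 was called. PCDHB14 had 5.46, 5.90 and 5.79 with EPC-Exos and 6.19, 6.11 and 6.12 with PBS, a change of -0.42 ± 0.12 (adjusted p = 0.00635). PCDHB10, under the filter, had 4.85, 5.14 and 5.22 with EPC-Exos and 5.62, 5.73 and 5.67 with PBS, and fell in the fit without the filter (-0.61 ± 0.12, adjusted p = 0.000415). PCDHB2, PCDHB12, PCDHB13 and PCDHB16 changed by -0.08 to -0.01 and were not called. The 3 tested alpha genes, PCDHA4, PCDHA5 and PCDHA11, changed by -0.03 to 0.23, and the 4 tested gamma genes, PCDHGA7, PCDHGB4, PCDHGB5 and PCDHGB7, by -0.03 to 0.17, with no call. Beta genes resemble each other closely, so probe sets of one can bind another. Among members under the filter that reached the Tag level in a group, PCDHA3, PCDHA13, PCDHB8, PCDHB9, PCDHGA5, PCDHGA9, PCDHGA11, PCDHGA12, PCDHGB2 and PCDHGC4 changed by -0.07 to 0.22, and none was called in the fit without the filter.

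Each alpha gene joins its own first exon to 3 exons that all alpha genes share, and 6 further probe sets carried the symbols of all 15 alpha genes, so the rule left them out. In the fit over all probe sets 4 of these 6 were called lower and 0 higher (5 and 0 at an unadjusted p under 0.05). The brightest averaged 5.58 ± 0.13 with EPC-Exos and 6.10 ± 0.073 with PBS (-0.52 ± 0.11, adjusted p = 0.00133). It alone of the 6 reached the signal filter, and which alpha gene it reads cannot be told. No single-symbol alpha gene was called lower.

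Over all 247 member probe sets 38 were called, 11 higher and 27 lower, or 15.4%, against 28.4% of all non-control probe sets. In 0 genes were probe sets called in both directions by limma, also at an unadjusted p under 0.05. Of the 16 genes with at least 2 probe sets past the filter, 10 had all of them on one side of 0. Among the 88 genes under the filter, 6 were called in the fit without it (6.82%, against 6.97% of all genes under it). CLDN14 was higher, and CDH9, CDH10, GJB2, PCDHB10 and PCDHB6 were lower, PCDHB6 at 3.31 ± 0.099 with EPC-Exos and 3.67 ± 0.14 with PBS, under the Tag level (adjusted p = 0.0162). Of the 88, 71 were below the Tag level in both groups.

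**Figure D4:**
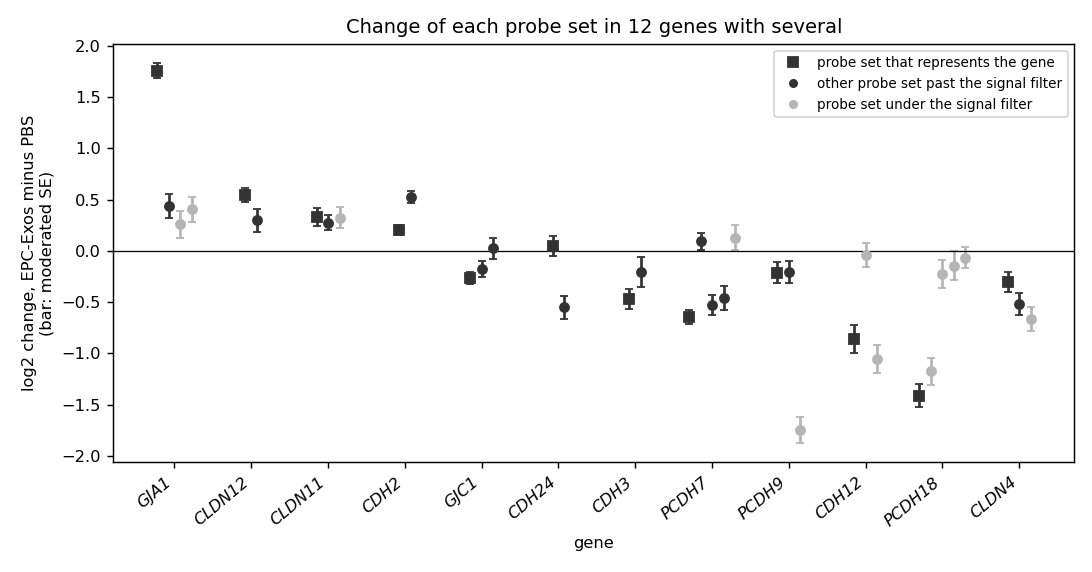
Log2 change (EPC-Exos minus PBS, vertical axis) of every probe set of 12 member genes, with the moderated standard error of the fit over all probe sets. Squares represent the gene, and pale points lie under the signal filter, where sizes are uncertain near background. The GJA1 probe sets past the filter lie at 1.76 and 0.44, and those of CDH24 lie on either side of 0.

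Partner genes were described from lists written from textbook knowledge. The lists cover junction proteins, repressor transcription factors, genes of cadherin turnover, cadherins outside the name rule and factors linked to protocadherins. Over all lists 11 of 78 tested genes rose and 26 fell, with a median change of -0.08. That is 14.1% higher and 33.3% lower, where 21.7% and 27.3% of all tested genes were called. Of 19 tight junction partners 10 fell (52.6%) and 1 rose, with a median of -0.19, and this share was not tested against that of all genes. The largest falls were in PARD6B and PARD6A, polarity adaptors (-1.59 ± 0.091 and -1.13 ± 0.11), CXADR, a virus receptor of tight junctions (-1.53 ± 0.10), and the scaffold PATJ (-0.83 ± 0.11). The claudin partners OCLN, occludin (-0.70 ± 0.11), and TJP1, the scaffold ZO-1 (-0.48 ± 0.061), fell as well and ESAM rose (0.30 ± 0.10), all 3 chosen with their values in view. Of 18 adherens junction partners 5 fell (27.8%) and 2 rose. AJUBA (-0.72 ± 0.055), vinculin (VCL, -0.57 ± 0.039), plakoglobin (JUP, -0.49 ± 0.11) and LMO7 (-0.42 ± 0.079) changed most. CTNNB1, beta-catenin, was at 12.12 with EPC-Exos and 12.13 with PBS, and it was picked in the same way.

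Among 9 pannexins and connexin partners 2 rose and 2 fell. PANX1, a channel protein related in shape to connexins, rose (0.44 ± 0.060), as did DBN1, drebrin (0.34 ± 0.054), while PRKCA, a kinase (-0.62 ± 0.044), and CAV1, caveolin (-0.53 ± 0.033), fell. Of 8 tested transcription factors known to repress cadherin and claudin genes 4 rose and 2 fell. Over all tested genes 21.7% rose and 27.3% fell, and with 8 genes the shares were not compared. SNAI2 (0.65 ± 0.049), TCF3 (0.55 ± 0.051) and ZEB2 (0.44 ± 0.095) rose, and TWIST2 (-0.52 ± 0.064) and TWIST1 (-0.23 ± 0.073) fell. ZEB1 rose too (0.42 ± 0.090), and SNAI1 and TCF4 were not called. ZEB1, TWIST1, SNAI1 and TCF4 were chosen with their values in view. The part of these factors in the changes of cadherins and claudins was not tested. Of 9 cadherins outside the name rule 1 rose and 4 fell, among them the planar polarity genes CELSR2 (-0.98 ± 0.085), FAT4 (-0.82 ± 0.11) and CELSR1 (-0.52 ± 0.069), and CLSTN1 (-0.26 ± 0.061). Of 8 genes of cadherin cleavage and turnover 1 rose, the phosphatase gene PTPN11 (0.46 ± 0.064), and 2 fell, PTPRM (-0.34 ± 0.053) and NCSTN (-0.30 ± 0.068). Of 7 factors linked to protocadherins 1 fell, CTCF (-0.15 ± 0.057), and 0 rose, where 1 was higher at an unadjusted p under 0.05.

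**Figure D5:**
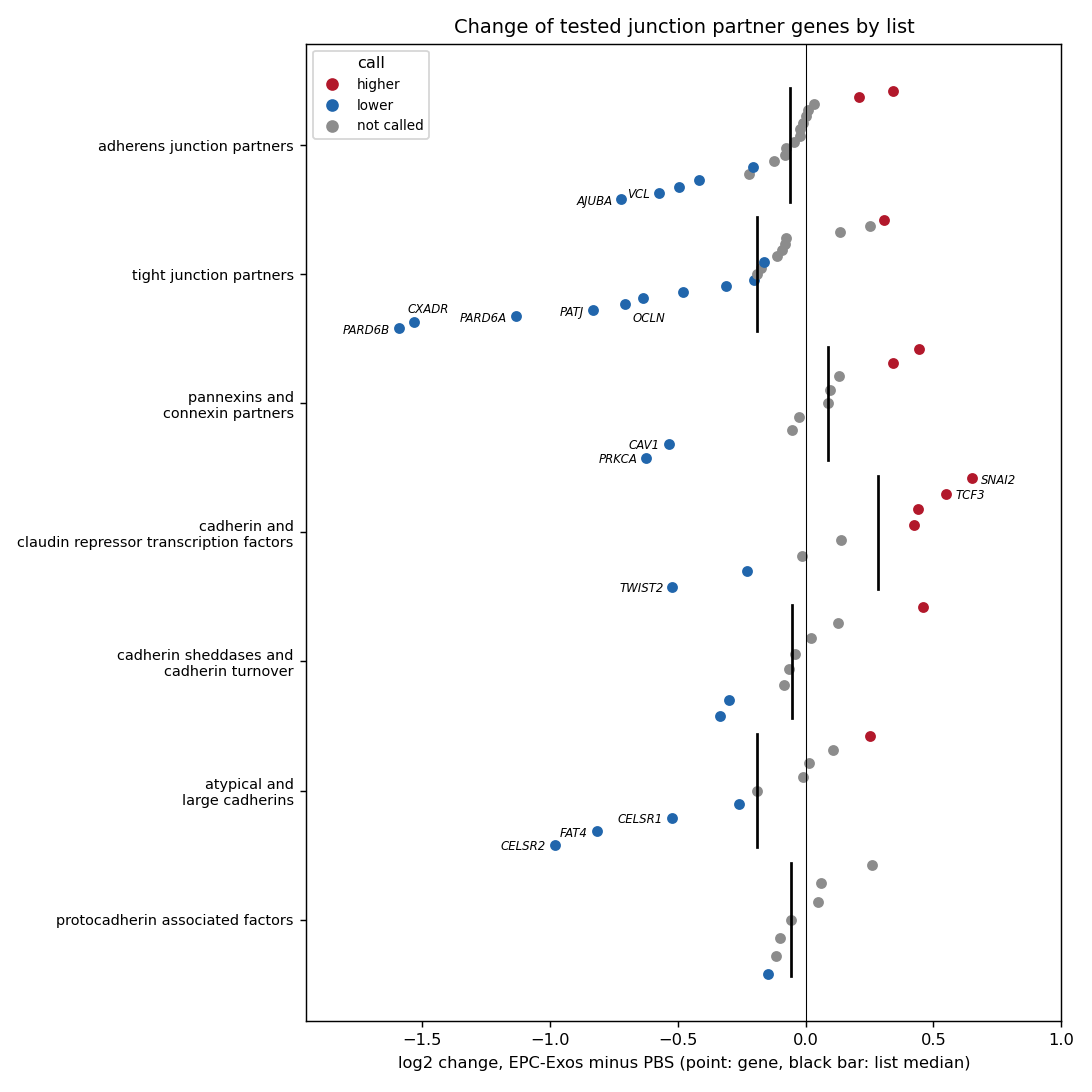
Log2 change (EPC-Exos minus PBS, horizontal axis) of the 78 tested partner genes in 7 lists, 1 point a gene, with each list's median as a black bar. The tight junction list has its median at -0.19 and reaches -1.59 in PARD6B, and the repressor list has its median at 0.28.

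Genes used as markers of other cell types also differed within this single line. Of 10 fibroblast and smooth muscle markers, 5 were tested, of which DCN, ACTA2, PDGFRB and COL1A1 fell and TAGLN rose. PDGFRA, COL1A2 and CSPG4 lay under the Tag level. LUM, under the filter, was at 3.67 with EPC-Exos, under the Tag level, and 5.97 with PBS, and RGS5 was at 5.12 and 5.02. The summed linear signal of the 10 was 2440 to 2706 with EPC-Exos and 3154 to 3570 with PBS. Of 6 leukocyte markers with a probe set, CD68 was tested and rose (0.74 ± 0.072). PTPRC, CD14 and LYZ lay under the Tag level, and CD3E and CD34 above it but under the filter. The summed signal of the 6 was 465 to 504 with EPC-Exos and 321 to 334 with PBS, most of it from CD68. The part of these markers in the falls of PCDH18 and CDH12 and in the rise of GJA1 was not tested.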

How the data were processed

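RNA of 6 HMEC-1 samples, 3 with EPC-Exos and 3 with PBS by their titles, was labelled with biotin and hybridised to Affymetrix 3' expression arrays, per the labels' protocols. The authors deposited 1 log2 signal per probe set and array. The submitters' processing notes name MAS5 but no step for it, and background correction, summarisation and scaling are not given in the sources used here. The log2 scale was taken from the values, which run from 2.47 to 14.52. No further normalization was applied. The platform's annotation gave 44988 probe sets 1 symbol and 1832 several. A gene was its brightest probe set by the mean of 6 arrays, tested where that mean reached the 40th percentile, control probe sets left out.

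The model had group as its only term (limma 3.58.1, R 4.3.3, lmFit and eBayes with a variance trend) and gave two-sided p-values with Benjamini-Hochberg adjustment over all genes tested. A second fit covered all 49293 non-control probe sets without a filter, and another all genes without the filter. Changes are EPC-Exos minus PBS, with moderated standard errors and n = 3 arrays per group, a number that limits the precision. The fit was tested on simulated data.

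The members, the gene lists and the tests were chosen with earlier results of these data known. Every tested member is named, as are members under the filter that reach the highest Tag control mean in a group, the vascular members and CDH1. In partner lists up to 4 called genes by size are named. Members under the filter that were called without it, and other list genes, were named after their values were seen. Alternatives were other scalings, offsets of 16 and 64, other filters, other ways to choose probe sets, variance models, a block for the replicate number, each array left out in turn, and stricter thresholds. Promoters came from RefSeq's GRCh38.p14 table.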

Additional observations from a re-analysis of the deposited data

How the results depend on the processing

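Of the 15 called members, 8 kept their call and direction under every alternative that tested them other than the stricter thresholds (CDH12, CDH2, CDH3, CLDN12, GJA1, PCDH18, PCDH7 and PCDHB14). CDH18, CLDN11, CLDN22, CLDN4, CLDN7, GJA3 and GJC1 lost theirs under at least 1. Of the 8, CDH2, CLDN12, GJA1 and PCDH7 were tested under all 19 alternatives other than the stricter thresholds. CDH12, CDH3, PCDH18 and PCDHB14 were tested under 17, 18, 16 and 18 of them. The direction of CDH24 reversed with the mean of its probe sets (-0.25) and without _x_at and _s_at probe sets (-0.55), where the other probe set takes over. Over the 37 tested members 44 of 732 values lost a call, 4 gained one, and in 21 the sign turned with neither value called.

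With no filter 14 members were lower, and with the filter at the 60th percentile 3 were, since 125 and 11 were then tested. Among member probe sets past the 40th percentile 14 were lower. Without _x_at and _s_at probe sets 16 partner genes were lower. At the series' threshold, a fold of 1.5 with an unadjusted p under 0.05, 1 member rose and 3 fell, 1 partner gene rose and 10 fell, 2 member probe sets rose and 11 fell, and 461 of all genes rose and 698 fell. In limma's test against a fold of 1.2 these counts were 2 and 3, 4 and 15, 4 and 9, and 773 and 1068. Leaving out each array in turn gave 3 to 6 members higher (3 without EPC-Exos replicate 2) and 7 to 10 lower, 9 to 13 partner genes higher and 22 to 26 lower, 8 to 13 member probe sets higher and 23 to 27 lower, and 2126 to 2528 of all genes higher and 2689 to 3207 lower.

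With the replicate number as a block 6 members were higher and 9 lower, 12 and 27 partner genes, 13 and 28 member probe sets, and 2724 and 3394 of all genes. Deviations of same-numbered arrays correlated at 0.20, 0.18 and 0.077, all positive but weak. The main model did not take the numbers as pairs, and whether they are pairs was not tested. An offset of 64, which by construction shrinks changes of dim probe sets, took PCDH18 to -0.68 and CDH12 to -0.44. Without detection calls, changes near the Tag level of 4.97 remain uncertain in size.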
